A study of Mus musculus with 16 samples.

Results

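The genes described here are 8 Krüppel-like factors with roles in fat cell formation: Klf2, Klf3, Klf4, Klf5, Klf6, Klf7, Klf9 and Klf15. They were taken by name from 22367 protein-coding genes of the mouse annotation and not by a measured value, though earlier results of these data were known. For each gene, every enriched region (an island) that overlapped the gene body plus 50 kb on each side was collected from 16 lists of chromatin immunoprecipitation sequencing (ChIP-seq). The 8 windows held 491 islands: 247 of H3K27ac, 119 of H3K4me1, 111 of SETD5-V5 and 14 of endogenous SETD5.

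Krüppel-like factors are zinc finger proteins that bind GC-rich and CACCC-like DNA. In cultured preadipocytes several of them act early and in relay, some of them driving the adipogenic factors C/EBPβ and PPARγ and others holding them back. H3K27ac marks active promoters and enhancers, and H3K4me1 marks enhancers whether or not they are active. SETD5 is a SET domain protein found with the corepressors HDAC3 and NCoR, and the study asked whether it keeps enhancers from becoming active.

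All libraries came from 3T3-L1, a mouse embryo fibroblast line that turns into fat cells under MDI, a mixture of insulin, the glucocorticoid dexamethasone and isobutylmethylxanthine. H3K27ac was mapped in cells carrying an empty retroviral vector and in cells carrying a SETD5 retrovirus, each before MDI (0 h) and after 48 h of it, with replicates A and B (8 libraries). SETD5-V5, the tagged protein, was mapped with an anti-V5 antibody at 0 h and after 6 h of MDI (4 libraries, A and B), and a library each stood for H3K4me1 before and after 48 h and for the cells' own SETD5 before and after 6 h. The SETD5 retrovirus was expressed from a viral promoter described as weak, in drug-selected cells. The protein was thus present before MDI as well, on top of the cells' own SETD5. Cells with either vector were separately transduced and selected, so a difference between vectors cannot be told apart from one between cell lines. The virus entry reads "-" for SETD5-V5 replicate A and names the tagged protein for replicate B, and it names the tagged protein for both H3K4me1 libraries.

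The lists held between 31292 and 39949 islands for H3K27ac, between 6666 and 35573 for SETD5-V5, between 49926 and 50276 for H3K4me1 and between 2132 and 3293 for endogenous SETD5. SETD5-V5 at 0 h replicate B was the smallest list of its kind, and the test that uses it is also given without it. The labelled cell type was checked against marker genes: the start sites of Col1a1, Col1a2, Pdgfrb and Thy1 lay under an H3K27ac island in 8 of 8 libraries, those of Ptprc, Cd3e, Epcam and Cdh1 in 0 of 8. The lists give island positions and a caller's score and no read counts, so depth within an island is unknown. By the read totals of the study, every H3K27ac library with SETD5 was deeper than any with the empty vector. Vector and sequencing depth therefore cannot be told apart in the comparisons of vectors, and an effect of depth was not tested. An absent island means only that a region stayed under the caller's threshold.

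The genes lie in mm9 as follows. Klf2 (ENSMUSG00000055148.7) spans chr8:74842932-74845555 on the plus strand, Klf3 (ENSMUSG00000029178.7) chr5:65194628-65221368 on the plus strand, Klf4 (ENSMUSG00000003032.7) chr4:55540013-55545347 on the minus strand and Klf5 (ENSMUSG00000005148.7) chr14:99697910-99712624 on the plus strand. Klf6 (ENSMUSG00000000078.6) spans chr13:5860735-5869639 on the plus strand, Klf7 (ENSMUSG00000025959.6) chr1:64076021-64168856 on the minus strand, Klf9 (ENSMUSG00000033863.1) chr19:23215716-23241401 on the plus strand and Klf15 (ENSMUSG00000030087.5) chr6:90412570-90425232 on the plus strand. Other protein-coding genes reach into 4 of the windows, Gm10282 and Eps15l1 at Klf2, Pibf1 at Klf5, Smc5 at Klf9 and Ccdc37 and Aldh1l1 at Klf15. An island in those windows cannot be assigned to a single gene from these lists. Distances below are in kb from the start of the gene record, negative upstream.

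The sequences that follow are those on which the results turn, read from the mm9 genome on the strand of the gene, 300 bases each. The first 5 are the centres of stretches where SETD5-V5 islands of both 6 h replicates met an H3K27ac island described below: 4 distal regions whose H3K27ac island was found at 48 h and not at 0 h, and the region beside the Klf5 start where SETD5-V5 was absent at 0 h. Capitals mark exact matches, on either strand, to 5 motifs: C/EBP (TTGCNNAA), AP-1 (TGANTCA), the glucocorticoid receptor motif AGAACA, TEAD (GGAATG) and the GC-rich KLF motif (CCNCNCCC). Overlapping matches of a motif were counted separately, and no match of a motif overlapped one of another motif in the sequences shown.
Klf15, -28.1 to -27.8 kb, intergenic, chr6:90384451-90384750, plus strand: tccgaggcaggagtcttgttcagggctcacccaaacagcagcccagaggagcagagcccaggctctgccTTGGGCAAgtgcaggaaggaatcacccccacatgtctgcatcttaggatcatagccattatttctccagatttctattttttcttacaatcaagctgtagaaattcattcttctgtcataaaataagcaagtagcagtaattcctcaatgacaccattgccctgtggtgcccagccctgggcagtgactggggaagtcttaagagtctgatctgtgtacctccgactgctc
Klf9, 47.6 to 47.9 kb, intergenic, chr19:23263351-23263650, plus strand: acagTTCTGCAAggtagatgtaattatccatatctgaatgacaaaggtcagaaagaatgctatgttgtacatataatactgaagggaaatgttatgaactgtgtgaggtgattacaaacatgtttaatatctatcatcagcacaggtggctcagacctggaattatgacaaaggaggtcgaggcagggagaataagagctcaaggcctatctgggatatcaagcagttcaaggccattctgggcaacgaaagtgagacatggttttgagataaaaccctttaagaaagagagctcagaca
Klf4, -9.2 to -8.9 kb, intergenic, chr4:55554251-55554550, minus strand: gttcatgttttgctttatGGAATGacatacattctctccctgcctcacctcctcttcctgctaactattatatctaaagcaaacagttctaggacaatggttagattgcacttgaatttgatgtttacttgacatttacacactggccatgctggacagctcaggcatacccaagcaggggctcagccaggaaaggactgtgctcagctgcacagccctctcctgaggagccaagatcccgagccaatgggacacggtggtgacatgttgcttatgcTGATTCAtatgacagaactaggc
Klf7, -11.5 to -11.2 kb, intergenic, chr1:64180051-64180350, minus strand: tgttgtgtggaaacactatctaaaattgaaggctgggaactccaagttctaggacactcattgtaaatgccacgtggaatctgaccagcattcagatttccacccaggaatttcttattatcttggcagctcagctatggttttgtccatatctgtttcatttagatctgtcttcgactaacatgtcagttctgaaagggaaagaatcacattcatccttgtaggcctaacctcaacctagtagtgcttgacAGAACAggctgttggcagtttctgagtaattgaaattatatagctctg
Klf5, 1.1 to 1.4 kb, intronic, chr14:99699051-99699350, plus strand: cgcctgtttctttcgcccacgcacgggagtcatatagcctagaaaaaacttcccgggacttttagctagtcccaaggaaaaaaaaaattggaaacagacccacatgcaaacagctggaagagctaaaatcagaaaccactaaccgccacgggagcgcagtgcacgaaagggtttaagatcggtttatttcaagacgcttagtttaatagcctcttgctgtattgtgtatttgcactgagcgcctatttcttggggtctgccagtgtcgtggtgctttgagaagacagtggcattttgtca

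The Klf15 and Klf9 stretches each held 1 C/EBP match, the Klf4 stretch 1 TEAD and 1 AP-1 match, the Klf7 stretch 1 AGAACA match and the Klf5 stretch none of the 5. Stretches centred by the SETD5 48 h islands at the same sites differed. Those at Klf15 (from -27.6 kb) and Klf4 (from -10 kb) held none of the 5. Those at Klf9 (from 45.8 and 48 kb) each held 1 TEAD match and no C/EBP match. The matches thus depend on where the 300 bases were cut. A Klf6 stretch from 12.3 kb, not shown, held 1 AGAACA match. Of the 26558 stretches in the genome made the same way, 15.3% held the C/EBP motif, 14% the AP-1 motif, 26.4% AGAACA, 16.8% the TEAD motif and 21.7% the KLF motif. A match is a string of letters and was not tested as a binding site.

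Promoters of the family carried the motif of the family to very different extents. The 300 bases before the start held 9 KLF matches at each of Klf2, Klf3 and Klf4, 3 at Klf15, 2 at each of Klf6 and Klf7, 1 at Klf5 and none at Klf9. Of 22374 promoters of this length, 53.2% held the KLF motif, 11.2% the C/EBP motif, 7.12% the AP-1 motif, 17.2% AGAACA and 13.8% the TEAD motif. The promoters of Klf4 and Klf15 are shown because the first lay under an H3K27ac island in all 8 libraries and the second under none.
Klf4 promoter, chr4:55545348-55545647, minus strand: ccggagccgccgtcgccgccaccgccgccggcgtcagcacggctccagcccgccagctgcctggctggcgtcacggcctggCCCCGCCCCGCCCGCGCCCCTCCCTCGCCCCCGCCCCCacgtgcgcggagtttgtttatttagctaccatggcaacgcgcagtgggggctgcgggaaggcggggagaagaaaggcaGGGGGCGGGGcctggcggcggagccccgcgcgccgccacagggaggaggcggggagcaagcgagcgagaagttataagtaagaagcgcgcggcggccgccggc
Klf15 promoter, chr6:90412270-90412569, plus strand: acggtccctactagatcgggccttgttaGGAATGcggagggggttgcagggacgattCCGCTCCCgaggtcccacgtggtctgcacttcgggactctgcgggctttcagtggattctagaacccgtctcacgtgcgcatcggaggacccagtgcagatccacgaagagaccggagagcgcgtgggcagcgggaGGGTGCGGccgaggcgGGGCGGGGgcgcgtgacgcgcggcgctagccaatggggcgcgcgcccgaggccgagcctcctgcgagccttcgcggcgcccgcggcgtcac

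The length of each window covered by islands was the measured quantity, in kb. It was compared on the log2(kb + 1) scale with limma across all 17041 protein-coding genes that had enough H3K27ac cover, with Benjamini-Hochberg adjusted p-values over all of them and a threshold of 0.05. Changes are log2 differences on that scale with their standard error (SE), and they understate the change of windows with little cover. A and B are separate cultures in the study, so 2 libraries stand behind each condition. With 2 libraries a side, groups often separate by chance. How many of all genes had groups without overlap was not counted. Separation of groups is therefore described below and is not evidence of a change.

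Differentiation of the empty-vector cells was followed first. H3K27ac cover rose over 48 h at Klf15 and Klf9, fell at Klf3 and did not pass the test at the other 5 genes. Klf15 and Klf9 are glucocorticoid-responsive members that promote fat cell formation, and Klf3 is a repressor that recruits CtBP. Among all genes tested, 25.2% rose and 14% fell, so 2 of 8 higher and 1 of 8 lower is close to the background for the group as a whole. The median change of the 8 genes was 0.28, against 0.14 for all genes tested.

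Klf15 had 10.8 kb and 7.0 kb of H3K27ac cover at 0 h in replicates A and B, and 48.8 kb and 45.8 kb at 48 h. The 48 h libraries lay far above the 0 h libraries, with a change of 2.31 (SE 0.20, limma adjusted p = 5.7e-05). At 0 h the Klf15 gene body held 0 kb in both empty-vector libraries. At 48 h it held 11.4 kb and 10.6 kb, while the downstream flank, which runs into Aldh1l1, held 26.4 kb and 29.0 kb. No H3K27ac island covered the start of the Klf15 gene record in any of the 8 libraries, and 1 library had one within 1 kb of it. The annotation also gives Klf15 a transcript that starts 2.7 kb farther in, at chr6:90415298, and an H3K27ac island covered that start in 2 of 8 libraries, both of them empty-vector libraries at 48 h.

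Klf9 had 15.5 kb and 14.8 kb at 0 h and 36 kb and 29.6 kb at 48 h. Its groups did not overlap, and the change was 1.06 (SE 0.16, limma adjusted p = 0.000823). Unlike Klf15, the Klf9 start carried an H3K27ac island in 8 of 8 libraries.

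Klf3 had 37.0 kb and 31.6 kb at 0 h and 23.4 kb and 24.2 kb at 48 h. Both 48 h libraries were below both 0 h libraries, with a change of -0.50 (SE 0.12, limma adjusted p = 0.0091). Much of the difference sat far from the gene. The highest-scoring Klf3 island outside promoters lay downstream, from 56.4 to 83.4 kb in 0 h replicate A and from 68.2 to 83.2 kb in replicate B, and it ran past the end of the window. It was 27 kb and 15.0 kb long at 0 h, and 6.4 kb and 4.0 kb long at 48 h. With flanks of 20 kb, which leave that region out, the Klf3 change was -0.09 (limma adjusted p = 0.652), and without empty-vector 48 h replicate A the limma adjusted p was 0.0519.

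The 5 genes that did not pass had smaller differences. Klf5, an early activator of Pparg, had 2.6 kb and 2.4 kb at 0 h and 4.0 kb and 3.8 kb at 48 h (change 0.49, limma adjusted p = 0.16). The Klf5 groups did not overlap, though the whole cover of this window was a single island at the start of the gene. That island was outscored by 72.1% and 63.8% of the islands of its list at 0 h and by 21.5% and 17.7% at 48 h, so it stood higher in the order at 48 h. When the lists were limited to islands above their median score, the 0 h islands of Klf5 dropped out and the 48 h islands stayed. The change of 2.29 found then was set by that cut and is no test of Klf5.

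Klf4, which activates Cebpb early in differentiation, had 4.6 kb and 5.6 kb at 0 h and 6.0 kb and 6.8 kb at 48 h (change 0.28, limma adjusted p = 0.212). Klf6, a partner of HDAC3 in silencing the preadipocyte gene Dlk1, had 18.8 kb and 17.2 kb at 0 h and 21.2 kb and 23.0 kb at 48 h (change 0.28, limma adjusted p = 0.128). In neither gene did the groups overlap, which is frequent by chance with 2 libraries a side, and in neither was the difference large enough to pass.

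Klf7, a repressor of fat cell formation, had 18.6 kb and 14.4 kb at 0 h and 11.4 kb and 12.2 kb at 48 h (change -0.44, limma adjusted p = 0.0777). Most of that difference lay in an intronic stretch from 18.9 to 26.7 kb, where the island was 7.8 kb and 5.0 kb long at 0 h and 1.8 kb and 2.0 kb long at 48 h. With flanks of 20 kb the Klf7 change was -0.73 and passed (limma adjusted p = 0.0159). Klf2, a repressor of Pparg, had 12.8 kb and 12.6 kb at 0 h and 12.4 kb and 11 kb at 48 h, a difference of -0.11 (limma adjusted p = 0.602).

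**Figure D1:**
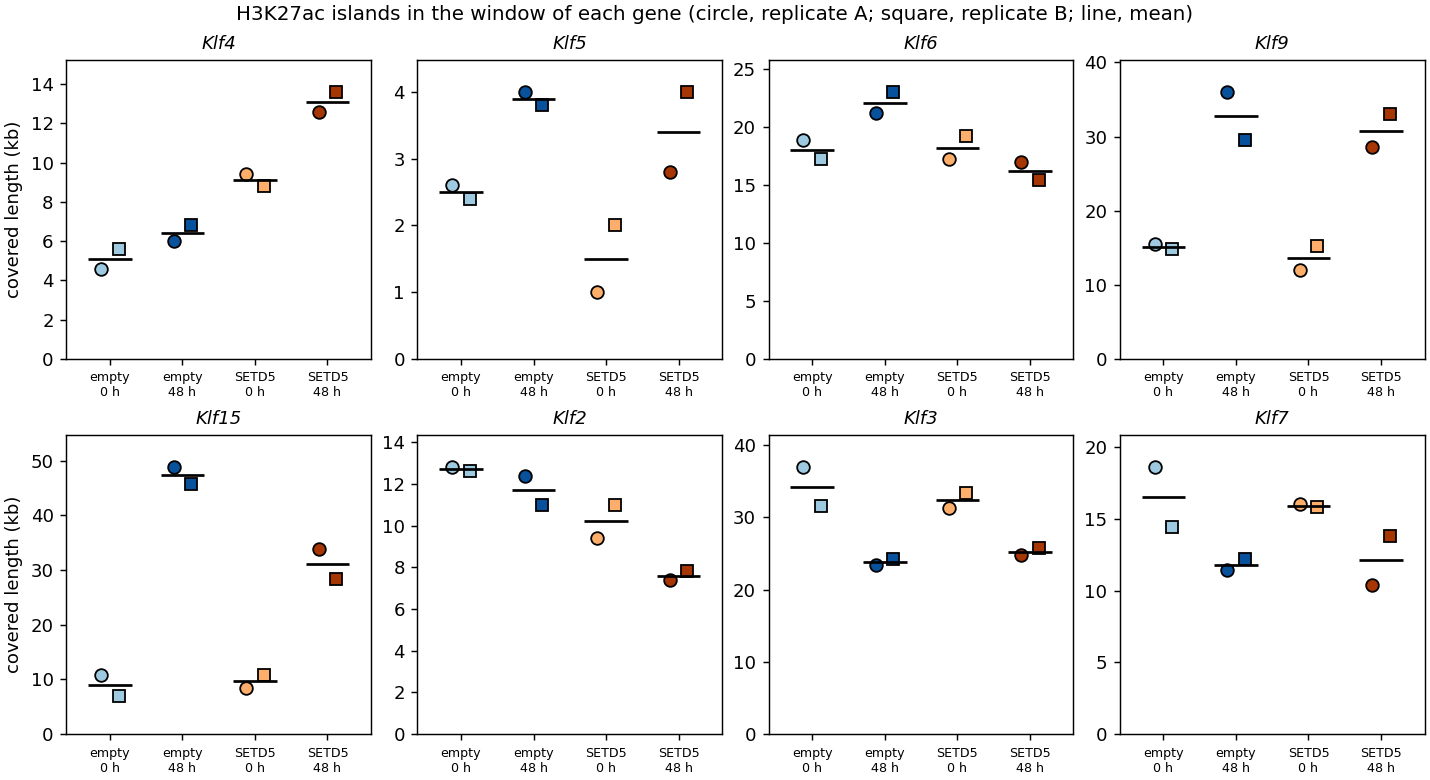
H3K27ac island cover (kb of the window) of the 8 genes in each of the 8 libraries, grouped by vector and time, with a point for each replicate. Klf15 stood at 7.0 to 10.8 kb in the 0 h libraries of both vectors and at 28.4 to 48.8 kb at 48 h, and Klf4 was higher in both SETD5 libraries than in both empty-vector libraries at each time.

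Cells with SETD5 were then followed over the same 48 h. H3K27ac cover rose at Klf15, Klf9 and Klf5, and no member fell past the threshold. Among all genes tested 15.8% rose and 12.6% fell (28.4% in all, and 16.3% without SETD5 48 h replicate B), and the median change was 0.00, with 0.16 for the 8 genes.

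Klf15 had 8.4 kb and 10.8 kb at 0 h and 33.8 kb and 28.4 kb at 48 h with SETD5. The groups were well apart (change 1.60, SE 0.20, limma adjusted p = 0.000593). Klf9 had 12.0 kb and 15.2 kb at 0 h and 28.6 kb and 33.0 kb at 48 h, again without overlap (change 1.13, SE 0.16, limma adjusted p = 0.000992). Klf9 and Klf15 kept both of their 48 h calls in all 16 alternative analyses of each comparison.

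Klf5 had 1.0 kb and 2.0 kb at 0 h and 2.8 kb and 4.0 kb at 48 h with SETD5. The change was 0.83 (SE 0.25, limma adjusted p = 0.0354). It rests on few kb and on single libraries, since the limma adjusted p was 0.199 without SETD5 0 h replicate A, 0.207 without SETD5 48 h replicate B and above the threshold in 4 further fits that left a library out. The Klf5 island rose from near the bottom of its list, outscored by 99.7% and 93.7% of islands at 0 h, to 13.7% and 11.7% at 48 h.

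The other 5 genes did not pass with SETD5. Klf4 had a change of 0.48 (limma adjusted p = 0.057), Klf3 -0.34 (0.0607), Klf2 -0.38 (0.0952), Klf7 -0.38 (0.148) and Klf6 -0.16 (0.424). The far downstream Klf3 island shortened here too, from 15.4 kb and 16.8 kb at 0 h to 5.6 kb and 6.6 kb at 48 h. In the Klf7 intron the island was 5.8 kb and 6.0 kb long at 0 h and was absent from both SETD5 lists at 48 h.

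**Figure D2:**
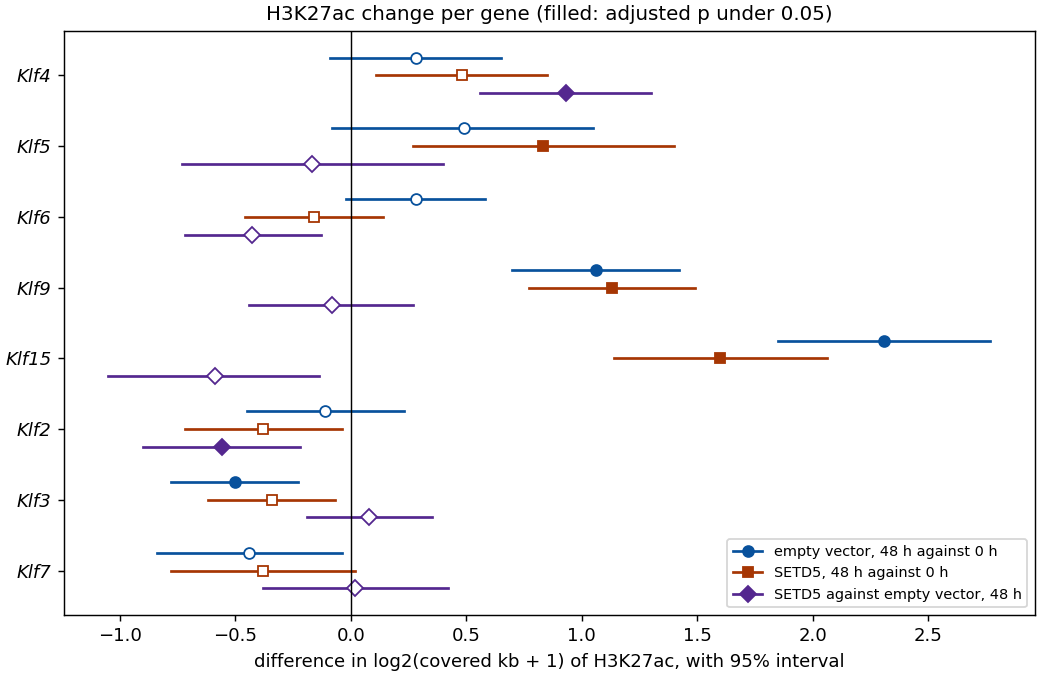
Change in H3K27ac cover, log2(kb + 1), of the 8 genes in the comparisons between times and between vectors, with 95% intervals from limma; filled points have an adjusted p under 0.05. Klf15 and Klf9 were filled in both comparisons over time, Klf3 with the empty vector only and Klf5 with SETD5 only, and Klf4 and Klf2 were filled on opposite sides in the comparison of vectors at 48 h.

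SETD5 cells were next set against empty-vector cells at the same time. At 0 h no member passed, against 2.54% of all genes tested in either direction, a share that was 0.241% without SETD5 0 h replicate B and 5.75% with scaled cover. Klf4 came nearest, with 9.4 kb and 8.8 kb with SETD5 against 4.6 kb and 5.6 kb with the empty vector (change 0.73, SE 0.16, limma adjusted p = 0.0576). The other 7 genes had changes between -0.51 at Klf5 and 0.12 at Klf15. By limma 1 of the 8 genes had an unadjusted p under 0.05, against 2670 of all 17041 genes tested.

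At 48 h Klf4 was higher and Klf2 lower with SETD5, and the remaining 6 did not pass. Of all genes tested 7.48% were higher and 8.65% were lower, and the 16.1% in either direction became 4.28% without SETD5 48 h replicate A. Klf4 had 12.6 kb and 13.6 kb with SETD5 against 6.0 kb and 6.8 kb with the empty vector. The libraries with SETD5 were all above those without (change 0.93, SE 0.16, limma adjusted p = 0.00753). The call was lost narrowly without SETD5 48 h replicate A (limma adjusted p = 0.0532) or replicate B (0.0654), and the change stayed between 0.85 and 1.01 in all fits that left a library out.

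Klf4 differed at its start and at a pair of upstream sites. The island over the Klf4 start was 3.8 kb and 4.4 kb long at 48 h with the empty vector and 6.0 kb and 6.6 kb long with SETD5. It was outscored by 20.2% and 17.6% of its list with the empty vector and by 4.12% and 4.48% with SETD5. The upstream island near -10 kb, which holds the Klf4 stretch shown above, was 2200 bp and 2400 bp long with the empty vector and 4800 bp and 5400 bp long with SETD5. Its standing moved from 87.7% and 58.1% of islands scoring higher to 19.6% and 19.4%.

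Klf2 had 7.4 kb and 7.8 kb at 48 h with SETD5 against 12.4 kb and 11 kb with the empty vector (change -0.56, SE 0.15, limma adjusted p = 0.037). The groups did not overlap, but the call depended on single libraries: it was lost in 6 fits that left a library out (limma adjusted p from 0.0486 to 0.164 over all 8), in the fit with a replicate block (0.0595) and with islands above the median score (change -0.34, limma adjusted p = 0.182). The Klf2 window also holds Gm10282 and Eps15l1, and the lists do not say which gene its islands serve. In every list at 48 h the longest H3K27ac island of this window lay over the Gm10282 promoter. That island was 5.6 kb and 5.8 kb long with the empty vector and 4.2 kb and 4.4 kb long with SETD5.

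Klf15 and Klf6 had less cover at 48 h with SETD5 in both replicates without passing. Klf15 had 33.8 kb and 28.4 kb against 48.8 kb and 45.8 kb (change -0.59, SE 0.20, limma adjusted p = 0.0807). Klf6 had 17.0 kb and 15.4 kb against 21.2 kb and 23.0 kb (change -0.43, SE 0.13, limma adjusted p = 0.0588). For both genes the groups were apart, which is not a test. The Klf15 difference passed when cover was scaled to the total of each list (limma adjusted p = 0.0274), with islands above the median score (0.0276) and without empty-vector 0 h replicate A (0.0442) or B (0.0433). The Klf6 difference passed with scaled cover (-0.41, limma adjusted p = 0.0454), with 20 kb flanks (-0.50, 0.03) and with equal numbers of islands (-0.59, 0.0204).

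The test of whether SETD5 changed the response to MDI itself, the change over 48 h with SETD5 minus that with the empty vector, found no member past the threshold, against 3.63% of all genes in either direction, a share that fell to between 0% (without SETD5 0 h replicate A) and 2.31% with a library left out and was 8.59% with scaled cover. The Klf15 difference was -0.71 (SE 0.29, 95% interval -1.36 to -0.06, limma adjusted p = 0.212). By limma 2 of the 8 genes, Klf15 and Klf6, had an unadjusted p under 0.05, against 3376 of all 17041 genes tested. The comparisons over time share no libraries between vectors, but the comparisons at 48 h and of the response share theirs. In each comparison between vectors, SETD5 cannot be told apart from other differences between the transduced cell lines.

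Single islands show where the cover came from. An island of replicate A was called new when it overlapped an island of replicate B and no island of the other condition, and its bounds are those of replicate A. In the empty-vector cells 8 of 28 islands of the 8 windows were new at 48 h (28.6%), against 23% of the islands of the whole genome. Of these, 5 lay in the Klf15 window and 1 each at Klf4, Klf6 and Klf9.

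The 5 Klf15 sites lay at -29.2 to -24.6 kb, -16.2 to -11 kb, 1.2 to 13.4 kb across the gene body, and 26.8 to 30.8 kb and 31.4 to 34.4 kb in introns of Aldh1l1. The last 2 lie in a single island of replicate B, from 26.4 to 53.8 kb. With replicate B as the reference, 7 islands of the 8 windows were new with the empty vector and 11 with SETD5. All 5 Klf15 sites lay under an H3K4me1 island at 0 h. That was a single library whose virus entry names the tagged protein and not the empty vector. The gene body island was 12200 bp and 10600 bp long and was outscored by 6.28% and 6.62% of its list. With SETD5 its counterpart, at 2.8 to 7.0 kb, was 4200 bp and 1800 bp long and was outscored by 47.4% and 52.7%. The farthest upstream site, which holds the Klf15 stretch shown above, was 4600 bp long in both empty-vector replicates and 2000 bp and 1400 bp long with SETD5. It lay under SETD5-V5 in both 6 h libraries and in neither 0 h library.

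**Figure D3:**
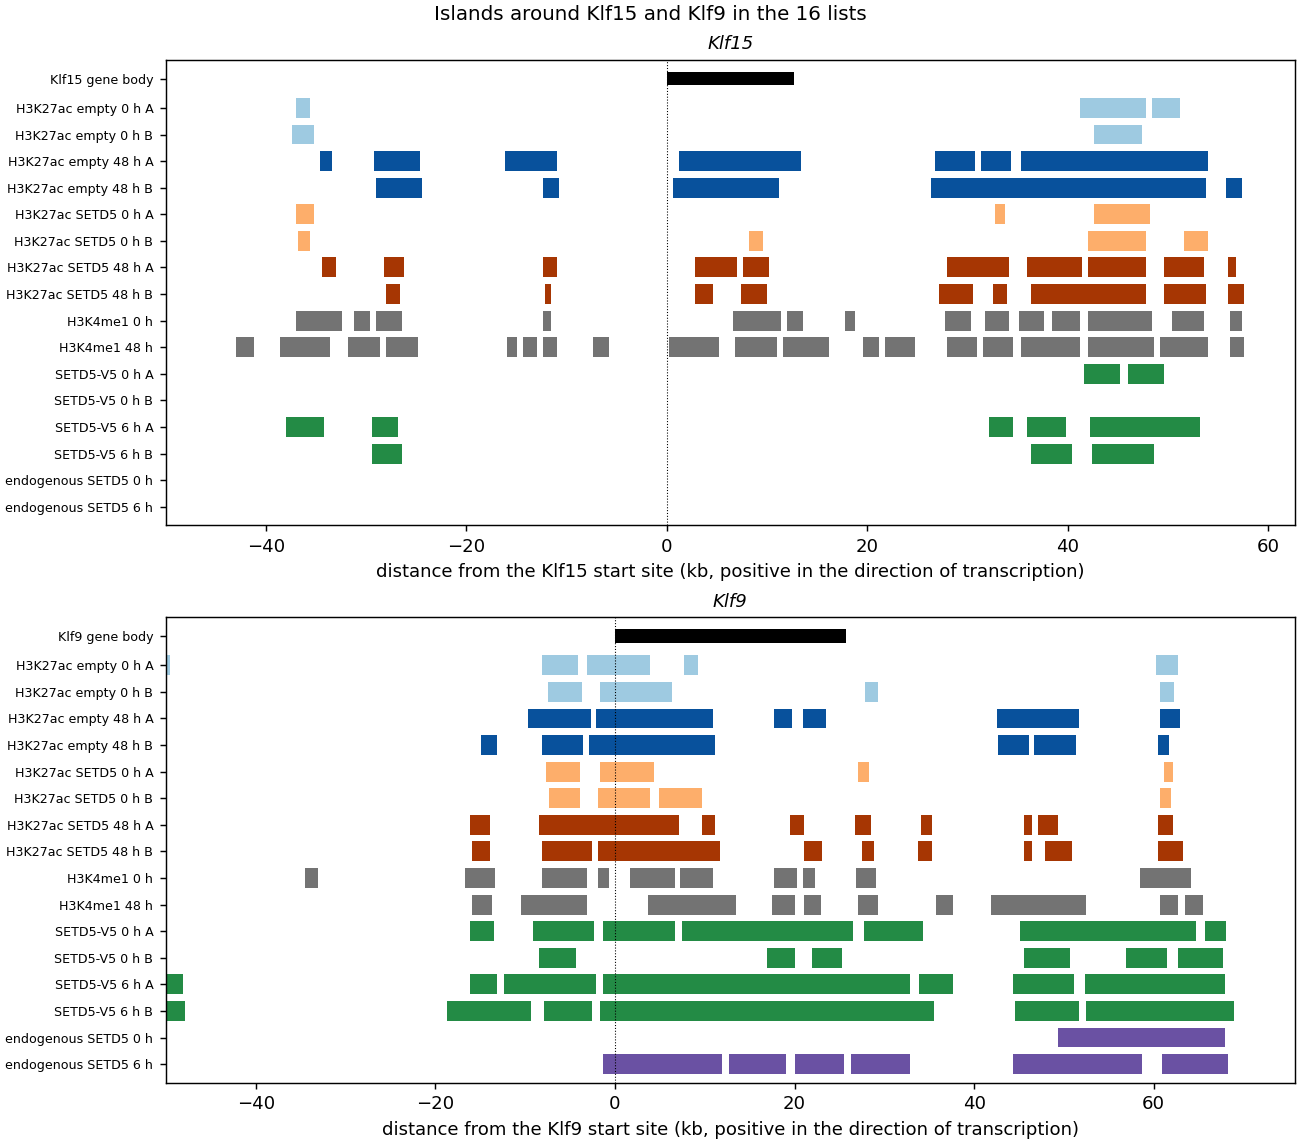
Islands of all 16 lists in the Klf15 and Klf9 windows, by distance from the start site in kb, a row for each list and bars drawn to scale. The Klf15 gene body was empty of H3K27ac at 0 h in 3 of 4 libraries and covered at 48 h in all 4, and SETD5-V5 islands covered 60.1% and 61.8% of the Klf9 window at 6 h.

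The new Klf9 site lay at 42.5 to 51.7 kb downstream in replicate A, where it was outscored by 8.31% of its list. Replicate B had a pair of islands there, at 42.7 to 46.1 kb, outscored by 75.3%, and at 46.7 to 51.3 kb, outscored by 10.7%. It is the region of the Klf9 stretch shown above. Here H3K4me1 was not listed at 0 h, and at 48 h an H3K4me1 island from 41.9 to 52.5 kb was outscored by 1.08% of its list. SETD5-V5 lay over the Klf9 site at 0 h and at 6 h in both replicates, and endogenous SETD5 at both times. With SETD5 this region appeared as islands of 1000 bp and 1000 bp at 45.5 to 46.5 kb and of 2200 bp and 3000 bp at 47.1 to 49.3 kb.

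The new Klf4 site near -10 kb had SETD5-V5 at 6 h only, in both replicates. It had no H3K4me1 island at 0 h within its replicate A bounds. An H3K4me1 island at 0 h, chr4:55555201-55558000, began right where the replicate A island ended and overlapped the replicate B island. The new Klf6 site, at 12.1 to 14.9 kb, lay under SETD5-V5 in all 4 libraries and under no H3K4me1 island. It was new with the empty vector and was absent from both SETD5 lists at 48 h.

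Of the 8 new sites, by replicate A bounds, 5 had H3K4me1 at 0 h and 7 had it at 48 h. SETD5-V5 lay over 2 of them in both 0 h libraries and over 4 in both 6 h libraries. Over the 6517 new islands of all regions the shares were 37.4%, 63.2%, 2.88% and 37.5%. Sites of a window share a locus and are not replicates, so the 8 are described and not tested. The H3K4me1 libraries carry the tagged-protein entry, so they may not show the state of the empty-vector cells.

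With SETD5, 12 of 35 islands were new at 48 h (34.3%), against 22.1% over all regions. They comprised 5 at Klf15, 5 at Klf9, 1 at Klf4 and 1 at Klf7, and the Klf9 site at 9.7 to 11.1 kb lies in a replicate B island of 13600 bp. Of the 12, 8 had H3K4me1 at 0 h, 11 had it at 48 h, 2 had SETD5-V5 in both 0 h libraries (5 in replicate A) and 9 had it in both 6 h libraries. Over all 7954 such islands the shares were 31.9%, 53.4%, 2.4% and 38.2%.

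The Klf7 site and the Klf9 site at 34.1 to 35.3 kb were also absent from both empty-vector lists at 48 h. The Klf7 site lay at -12.1 to -10.7 kb, was 1400 bp and 2600 bp long and was outscored by 65.4% and 43.1% of its list. It had H3K4me1 at 48 h and SETD5-V5 at 6 h in both replicates, and its sequence is the Klf7 stretch shown above. Between vectors at 48 h, 4 of 35 islands were found with SETD5 only (11.4%, against 16.8%), 2 of them at Klf9 and 1 each at Klf4 and Klf7. The Klf4 island, at -31.9 to -30.1 kb, lay over the promoter of the gene Gm12511.

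In the other direction, 3 of 28 islands at 48 h were found with the empty vector only (10.7%, against 7.06%), 1 each at Klf2, Klf6 and Klf7. In replicate A these were outscored by 91.2%, 89.8% and 93.7% of the list. The Klf2 site, at -11.7 to -9.7 kb, met in replicate B the edge of an island over the Gm10282 promoter, at -16.7 to -10.9 kb. Both SETD5 lists at 48 h also held an island over that promoter. With replicate B as the reference, 2 of 26 islands were found with the empty vector only (7.69%, against 7.71%). Fewer islands were lost over time: 3 of 22 with the empty vector (13.6%, against 26.1%) and 5 of 26 with SETD5 (19.2%, against 20.4%). At 0 h, 2 of 26 islands were found with SETD5 only (7.69%, against 8.87%), at Klf4 and Klf6, and 0 of 22 with the empty vector only (against 4.22%).

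**Figure D4:**
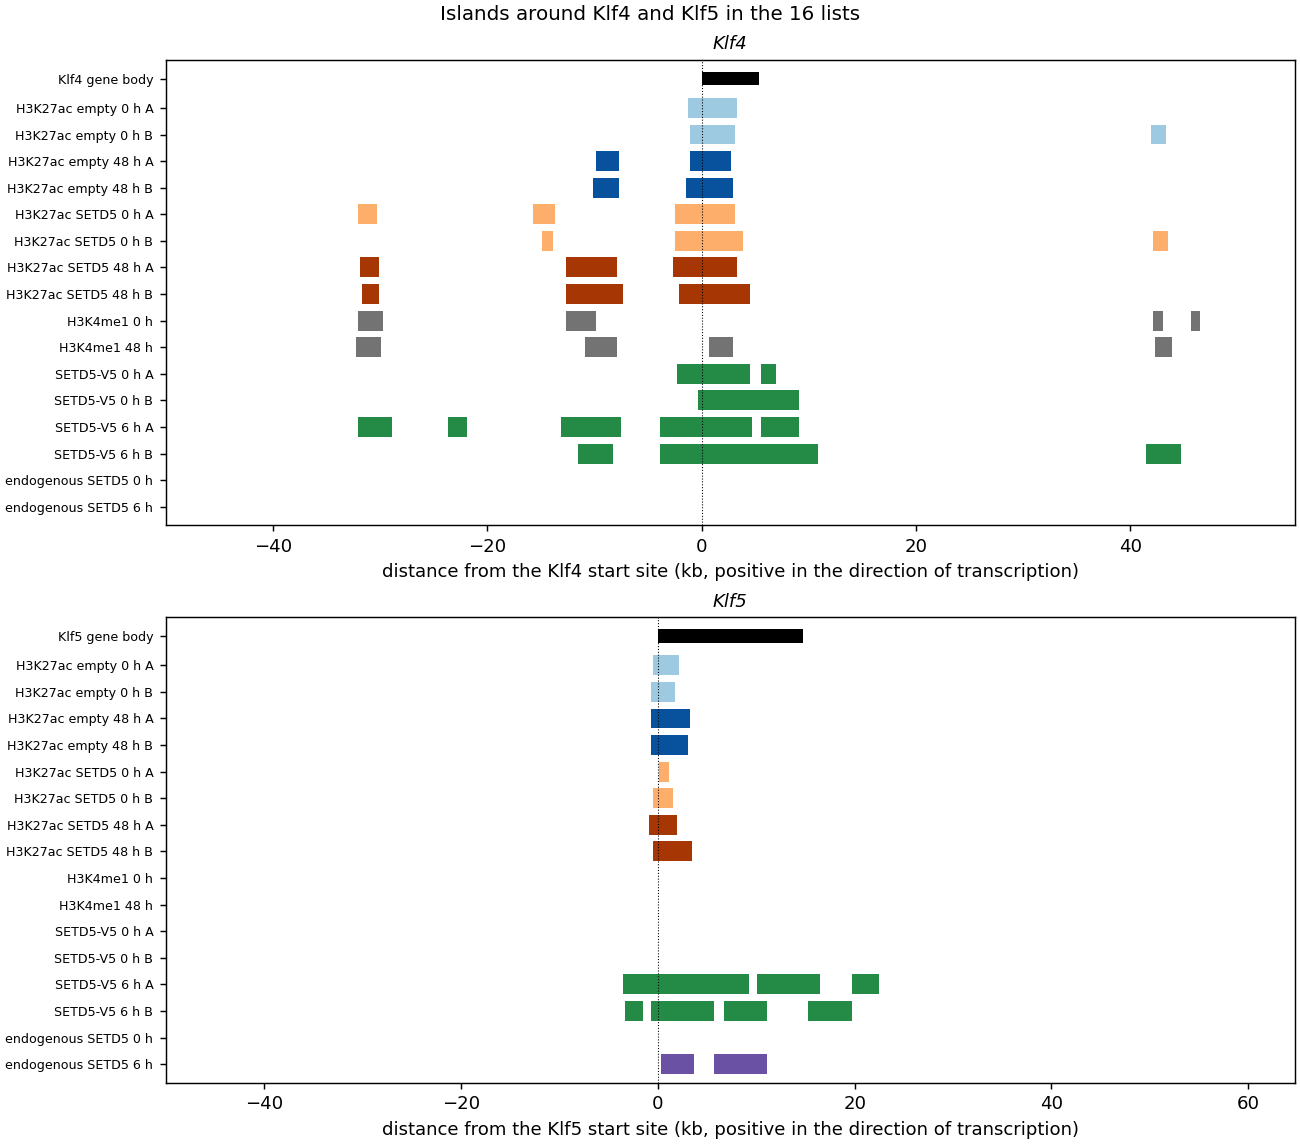
Islands of all 16 lists in the Klf4 and Klf5 windows, by distance from the start site in kb, a row for each list and bars drawn to scale. The Klf4 island near -10 kb was found at 48 h with both vectors and was longer with SETD5, and the Klf5 window held 1 H3K27ac island per library and SETD5 islands at 6 h only.

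H3K4me1 had a library per time, so its values carry no test. Klf15 had 38.0 kb at 0 h and 61.6 kb at 48 h, Klf9 31.4 kb and 42.7 kb, Klf2 16.4 kb and 20.6 kb and Klf4 7.0 kb and 9.2 kb. Klf3 had 30.4 kb and 25.8 kb, Klf6 8.8 kb and 6.2 kb and Klf7 16.6 kb and 7.4 kb. Only Klf7 passed a 2-fold difference in kb + 1 (ratio 0.477), against 7.92% of genes lower by that much. Its intronic stretch accounts for much of it: an 8.0 kb island at 0 h, outscored by 3.38% of its list, was left as islands of 1.4 kb and 0.8 kb at 48 h. Klf5 had no H3K4me1 island at either time, although H3K27ac and SETD5-V5 were listed at its start.

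SETD5-V5 was compared between 6 h and 0 h in a fit of its own, over 14764 genes. Klf5 passed and the other 7 did not, against 7.52% of all genes higher. The share past the threshold in either direction, 7.57%, was 0.0724% without 0 h replicate B, 40.8% without 0 h replicate A and 0% with a replicate block. The median change of all genes was 1.81, since the 6 h lists cover far more of the genome (147.9 and 196.1 Mb) than the 0 h lists (85.6 and 35.3 Mb), and the median of the 8 genes, 1.06, lay below it. A change in this comparison should be read against that shift.

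Klf5 was listed at 0 kb in both 0 h libraries and had 22.0 kb and 17.0 kb of SETD5-V5 cover at 6 h. Its 0 h group thus shows no spread, and its SE and p-value rest in part on this floor. The window entered the test through its 6 h cover alone. The log2 change of 4.35 (SE 0.46, limma adjusted p = 0.0471) depends on the pseudocount and is no bound on the fold. With cover scaled to the total of each list it was 3.83 (limma adjusted p = 0.0393), and with a pseudocount of 0.2 kb it was 6.61 (0.0209). The call was lost without 0 h replicate B, the thin list (limma adjusted p = 0.111), with equal numbers of islands (3.34, 0.0579) and with a replicate block (0.0534). The SETD5-V5 island over the Klf5 start was 12.8 kb long in replicate A and 6.4 kb long in replicate B at 6 h.

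Endogenous SETD5 was also listed at 0 kb for Klf5 at 0 h, and it covered 8.8 kb at 6 h, in islands at 0.3 to 3.7 kb and 5.7 to 11.1 kb, both inside the gene. Of the 8 genes, 5 had no endogenous SETD5 island at either time. Little cover was usual in these lists, where 4898 of all 22367 protein-coding genes had a mean of at least 1 kb. Klf9 had 18.6 kb at 0 h and 53.4 kb at 6 h (ratio of kb + 1 2.78), and Klf3 had 13.4 kb and 13.0 kb. Of these 3 genes, Klf5 and Klf9 were higher by 2-fold, against 67.3% of the genes with enough cover in these thin lists.

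Klf9 and Klf3 had the most SETD5-V5 cover. Klf9 had 65.0 kb and 25.6 kb at 0 h and 75.5 kb and 77.7 kb at 6 h, and the difference between its 0 h replicates was larger than most changes (change 0.89, limma adjusted p = 0.351). At 6 h an island ran from just before the Klf9 start across the whole gene, 34.2 kb and 37.2 kb long, and was outscored by 1.04% and 1.21% of its list. Klf3 had 47.6 kb and 35.6 kb at 0 h and 48.4 kb and 39.2 kb at 6 h, so its cover was already wide before MDI (change 0.08, limma adjusted p = 0.89).

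Klf4 had 8.2 kb and 9.4 kb at 0 h and 22.8 kb and 21.2 kb at 6 h (change 1.23, limma adjusted p = 0.265). Klf6 had 15.6 kb and 14.0 kb at 0 h and 27.4 kb and 24.2 kb at 6 h (change 0.76, limma adjusted p = 0.398). In both genes the 6 h libraries were above the 0 h libraries, but with scaled cover the sign turned, to -0.30 at Klf4 and -0.80 at Klf6, and likewise at Klf3 (-1.52), Klf7 (-0.79) and Klf9 (-0.71).

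In the remaining 3 genes the 0 h replicates disagreed. Klf15 had 7.2 kb and 0 kb at 0 h and 23.6 kb and 13.2 kb at 6 h (change 2.71, limma adjusted p = 0.255), and none of it reached the gene body. Klf2 had 20.4 kb and 0 kb at 0 h and 20 kb and 13.8 kb at 6 h (1.93, limma adjusted p = 0.431). Klf7 had 19.0 kb and 2.6 kb at 0 h and 18.6 kb and 7.8 kb at 6 h (0.63, limma adjusted p = 0.69). For Klf2 and Klf7 replicate A alone showed no increase. Without 0 h replicate A the fit called Klf2, Klf5, Klf9 and Klf15, and without 0 h replicate B it called none, so how many genes pass was set by which 0 h list was kept.

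**Figure D5:**
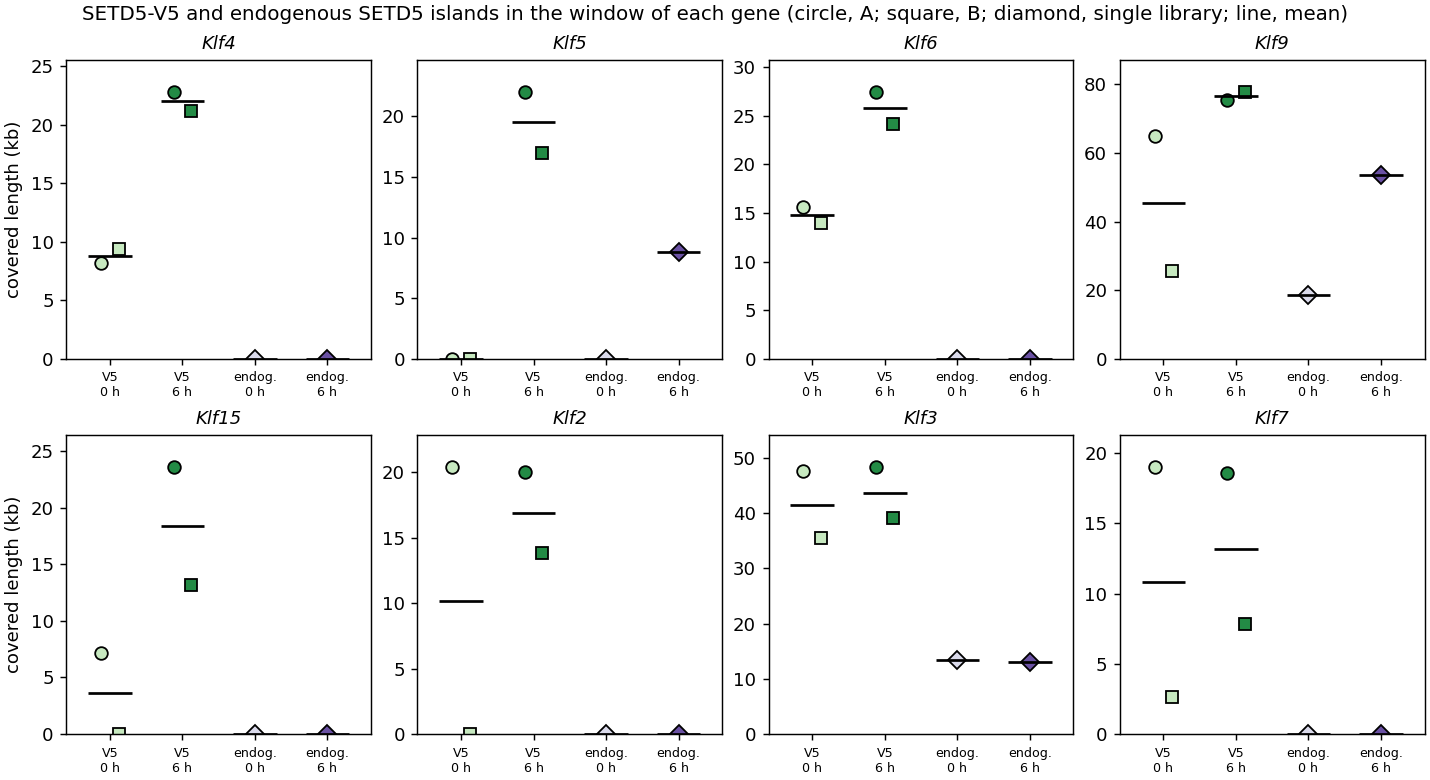
SETD5-V5 and endogenous SETD5 island cover (kb of the window) of the 8 genes at 0 h and 6 h, with a point for each library. Klf5 stood at 0 kb in all 0 h libraries and at 22.0, 17.0 and 8.8 kb at 6 h, and 0 h replicate B was low or at 0 for Klf2, Klf7, Klf9 and Klf15.

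The start sites differed in cover among the 8 genes. Shares over the start sites of all genes were not counted. Klf2, Klf3, Klf4, Klf6, Klf7 and Klf9 had an H3K27ac island over the start in 8 of 8 libraries, Klf5 in 7 of 8 and Klf15 in 0 of 8. SETD5-V5 covered the start of Klf3 and Klf4 in 4 of 4 libraries, of Klf2, Klf6, Klf7 and Klf9 in 3 of 4, of Klf5 in 2 of 4 and of Klf15 in 0 of 4. The Klf3 start island was among the strongest of every H3K27ac list, outscored by 0.139% to 0.898% of islands.

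The start islands of Klf6 and Klf7 stood lower in the order at 48 h than at 0 h in every pair of lists. With the empty vector the Klf6 island was outscored by 0.967% and 0.688% of islands at 0 h and by 3.47% and 2.81% at 48 h. With SETD5 the shares were 0.578% and 0.587% at 0 h and 2.68% and 2.14% at 48 h. For Klf7 they were 0.819% and 0.902%, then 4.3% and 4.78% with the empty vector, and 0.598% and 0.404%, then 1.84% and 1.88% with SETD5. A rank within a list says nothing of the height of the signal, and these ranks were not tested.

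Other genes of the family and of the pathway were read in the same fits. Of 9 further Klf genes, 7 had enough H3K27ac cover to be tested. Over 48 h with the empty vector 2 of the 7 rose, Klf13 (change 1.07, limma adjusted p = 0.00044) and Klf16 (0.52, 0.0417), and none fell. Of all genes tested 25.2% rose and 14% fell. With SETD5 1 of 7 rose, Klf12 (2.37, limma adjusted p = 0.00365), against 15.8% of all genes, and none passed between vectors at 0 h or 48 h. There 2 and 1 of the 7 had an unadjusted limma p under 0.05, against 2670 and 5090 of all 17041 genes tested. Of 5 tested for SETD5-V5, Klf1 was higher at 6 h (3.42, limma adjusted p = 0.0474), against 7.52% of all genes. Klf1 had 0 kb listed in both 0 h libraries, so its change depends on the pseudocount. Its p-value rests in part on a group without spread.

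The partner genes, on or with which these factors act, were Cebpa, Cebpb, Pparg, Egr2, Ctbp1, Ctbp2, Hdac3, Dlk1, Nr3c1 and Slc2a4. Over 48 h with the empty vector 5 of 10 rose: Cebpa (1.34, limma adjusted p = 0.000147), Cebpb (1.18, 0.000373), Slc2a4 (0.72, 0.00395), Pparg (0.62, 0.00612) and Hdac3 (0.68, 0.0417). Dlk1 (-1.16, limma adjusted p = 0.000461), Ctbp2 (-0.43, 0.0327) and the glucocorticoid receptor gene Nr3c1 (-0.40, 0.0331) fell. The shares of all genes tested were 25.2% higher and 14% lower. With SETD5 Cebpb rose (0.93, limma adjusted p = 0.00216) and Dlk1 fell (-1.09, 0.00111), and the other 8 did not pass. Among all genes 15.8% rose and 12.6% fell.

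At 48 h Cebpa (-1.64, limma adjusted p = 0.000614), Slc2a4 (-0.80, 0.00859), Cebpb (-0.58, 0.0343) and Pparg (-0.48, 0.0413) had less cover with SETD5, and Ctbp2 had more (0.70, 0.0109). Of all genes tested 8.65% had less and 7.48% had more. The study itself reported less H3K27ac at Cebpa and Pparg enhancers with SETD5 from these libraries, so those calls are not separate evidence. Cebpa was also the partner whose response differed between vectors (-1.17, limma adjusted p = 0.0232), against 3.63% of all genes in either direction. For SETD5-V5 1 of 10 was higher at 6 h, Hdac3 (3.63, limma adjusted p = 0.0471), against 7.52% of all genes. Hdac3 also had 0 kb in both 0 h libraries, so the limits given for Klf1 hold for it too. None of the 10 differed between vectors at 0 h, where by limma 2 had an unadjusted p under 0.05, against 2670 of all 17041 genes.

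These calls were not equally firm. Klf13, Cebpa, Cebpb, Slc2a4 and Dlk1 kept their call over 48 h with the empty vector in 16 of 16 alternative analyses, Pparg in 15, Nr3c1 in 8 and Klf16, Hdac3 and Ctbp2 in 7. With SETD5 Dlk1 kept it in 16 and Cebpb and Klf12 in 15. Between vectors at 48 h Cebpa kept it in 16, Slc2a4 in 12, Ctbp2 in 11, Cebpb in 8 and Pparg in 5, and the difference in response at Cebpa in 8. For SETD5-V5 Klf1 kept its call in 7 of 9 and Hdac3 in 10 of 12, and both were lost without 0 h replicate B (limma adjusted p = 0.153 and 0.14).

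The genes whose H3K27ac cover most resembled that of the members that passed with the empty vector were found by Pearson correlation over the 8 libraries, which share 4 conditions, so the points are not independent and no test is given. For Klf15 they were Cyhr1 (r = 0.997), 2610020H08Rik (0.996) and Lyrm1 (0.995) of 17026 genes. For Klf9 they were Gm6055 (r = 0.996), Zfp949 (0.995) and 5830403L16Rik (0.993), and for Klf3 they were Fam98a (0.992), Macrod2 (0.99) and Zc3h8 (0.988), of 17029 genes each.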

How the data were processed

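Island lists of 16 ChIP-seq libraries were used. Reads, cut to 36 bp, were placed on mm9 by the authors (ELAND or Bowtie2). Islands were called in each library separately by SICER or SICER2, in windows of 200 bp with an E-value of 100. Gaps were 400 bp (histone marks) or 600 bp (SETD5). Where the study gives island counts for both callers, the lists used here have the SICER2 counts. The deposited score of each island is the caller's value and was used only to rank or limit islands within a list. The submitters' processing notes name Bowtie2, SICER and deepTools without versions. All 479799 islands fitted the NCBIM37 chromosomes (the assembly behind mm9), and genes came from GENCODE vM1.

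Per gene, the kb of the gene body and 50 kb on each side under islands was summed and tested as log2(kb + 1) with limma 3.58.1 in R 4.3.3 (trended variances, two-sided, 1 fit for the 8 H3K27ac and 1 for the 4 SETD5-V5 libraries), over genes with a mean cover of at least 1 kb. Sequences were read with pysam 0.24.0 in Python 3.11.15. H3K4me1 and endogenous SETD5, with 1 library per time, were described by a 2-fold difference in kb + 1. Islands were matched by an overlap of at least 1 bp, with replicate A as the reference list. Standing in a list is the percent of its islands with a higher score. No 2 lists were identical. Cebpd, a pseudogene in this annotation, and Klf8 and Klf17, with too little H3K27ac cover, were not tested. A further marker gene is not reported here. Alternatives changed the pseudocount, filter, flanks, clipping, island set, scaling, block and replicates.

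The genes, gene lists and comparisons were chosen with earlier results of these data known. Named were all 8 genes, their start islands, the highest-scoring island outside promoters, the islands found in both replicates of a condition and neither of another, and the family and partner genes that passed. Members were counted by the same threshold as all genes.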

Additional observations from a re-analysis of the deposited data

Results flagged for a closer look

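Klf6 was flagged for the order of its H3K27ac libraries over time, which was opposite with the 2 vectors. How many of all genes share such an order was not counted. With the empty vector both 48 h libraries (21.2 kb and 23.0 kb) lay above both 0 h libraries (18.8 kb and 17.2 kb), and with SETD5 both 48 h libraries (17.0 kb and 15.4 kb) lay below both 0 h libraries (17.2 kb and 19.2 kb). The difference between the changes was -0.44 on the log2(kb + 1) scale (SE 0.19, 95% interval -0.86 to -0.02), and it did not pass across all genes (limma adjusted p = 0.233). The change alone was 0.28 with the empty vector and -0.16 with SETD5, where the nearest libraries were 17.0 kb and 17.2 kb, and neither passed. An island at 12.1 to 14.9 kb, found at 48 h with the empty vector only, is part of it.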

How the results depend on the processing

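The rises of Klf9 and Klf15 over 48 h kept their direction and call under every alternative with both vectors, and no result of the 8 genes past the threshold changed sign. Of 383 results of the 8 genes under other settings, 337 kept direction and side of the threshold, 5 lost a call, 21 gained one and 20 changed sign. Of 352 with a library left out, the counts were 307, 16, 8 and 21. For the family and partner genes that had passed, 26 of 165 results under other settings and 52 of 160 with a library left out lost the call, and none changed sign. The cause was not tested.

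Counts of the 8 genes past the threshold moved as follows. With the empty vector over 48 h they were 5 in place of 3 with 20 kb flanks and with islands above the median score. The latter count includes Klf5, whose 0 h islands that cut removes. With SETD5 over 48 h they were 5 in place of 3 with 20 kb flanks and with scaled cover. SETD5 against empty vector at 0 h gave 1 in place of 0 with islands above the median score (Klf2) and with equal numbers of islands (Klf5), and at 48 h 4 in place of 2 with scaled cover and 0 to 3 with a library left out (0 without either SETD5 48 h library, 1 without either empty-vector 48 h or SETD5 0 h library, 3 without either empty-vector 0 h library). The difference of changes gave 1 in place of 0 with equal numbers of islands (Klf5). SETD5-V5 gave 0 in place of 1 with equal numbers of islands and 0 to 4 with a library left out (4 without 0 h replicate A, 0 without 0 h replicate B). Islands lost over 48 h with the empty vector numbered 5 in place of 3 at an overlap of 50%. Taking replicate B as the reference list, an alternative chosen after seeing the data, moved no island count by more than 1.5 times. With a replicate block (letters A and B, which are not stated to mark a shared batch; deviations of same-lettered libraries correlated at r = -0.0311 to 0.1187 for H3K27ac and 0.0149 for SETD5-V5), SETD5 against empty vector at 48 h called 1 gene (Klf4) and SETD5-V5 called 0 (Klf5, limma adjusted p = 0.0534). No other count moved by more than 1.5 times with the block.

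Signs turned in results that had not passed. With 20 kb flanks, SETD5-V5 at Klf3 was -0.39 and Klf6 at 0 h between vectors -0.07. Klf6 at 0 h between vectors was -0.01 with whole islands, -0.07 with islands above the median score, -0.09 with equal numbers and -0.02 scaled. Islands above the median score also gave -0.08 for Klf4 over 48 h with the empty vector, and 0.45, -0.17 and -0.07 for the difference of changes at Klf2, Klf5 and Klf9. Equal numbers gave -0.06 for Klf15 at 0 h and -0.08 for Klf7 at 48 h between vectors, -0.02 for the difference at Klf9, and -0.87 and -0.53 for SETD5-V5 at Klf2 and Klf3. Scaled cover gave -1.52, -0.30, -0.80, -0.79 and -0.71 for SETD5-V5 at Klf3, Klf4, Klf6, Klf7 and Klf9. With a library left out, the ranges that crossed 0 were, between vectors at 0 h, -0.19 to 0.03 (Klf3), -0.06 to 0.09 (Klf6), -0.21 to 0.13 (Klf7), -0.31 to 0.01 (Klf9) and -0.16 to 0.40 (Klf15), between vectors at 48 h, -0.37 to 0.03 (Klf5), -0.17 to 0.21 (Klf7) and -0.22 to 0.05 (Klf9), for the difference, -0.13 to 0.25 (Klf7) and -0.09 to 0.23 (Klf9), and for SETD5-V5, -0.28 to 4.14 (Klf2), -0.13 to 0.28 (Klf3) and -0.61 to 1.87 (Klf7).

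With equal numbers of islands, the share of higher among all calls fell from 63.7% to 38% between vectors at 0 h and from 46.4% to 30.2% at 48 h. With 2 libraries per condition and no counts within islands, small windows such as Klf5 are the least certain, and weak islands can drop under the caller's threshold in a thin list.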
